A study of Mus musculus with 64 samples.

Results

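Of 39017 genes counted in murine pancreatic tumour cells, 8849 reached 5 CPM (a gene's count scaled to a common library total) or more in mono-culture in each of 8 lines, mitochondrial transcripts left aside. Among these, 17 genes had a ratio of mean coculture CPM to mean mono-culture CPM of 0.67 or less in every line, which is 0.192% of the genes that could have met the rule. The 17 were selected on these ratios, so the lower level in coculture is described here and was not tested. With the same mono-culture floor and the ratio limit inverted, 8 genes were higher in all 8 lines. Genes that rose from under the floor could not be counted there, so the 2 counts are not a like comparison.

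The lines were 7 clones, each 1 clone of a KPC tumour (mutant Trp53, with Cre under the Pdx1 promoter, strain background C57BL/6 mixed), and a further line called KPC1. The study placed clones E, H and V in group 1 and clones K, M, N and T in group 2, and KPC1 in neither. Each line was sequenced from 4 mono-culture libraries and from 4 libraries of GFP-positive tumour cells recovered by FACS after 48 h in culture with fibroblasts, which gives 64 libraries. Whether mono-cultures also passed through the sorter, and whether replicates were separate cultures, is not stated in the labels, so p-values measure the spread between these libraries.

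Library totals lay between 11178721 and 21333683 counts, and each of the 64 libraries correlated best with another library of its own line and culture. Of 19 fibroblast markers tested, 16 were called higher in coculture and none lower. Of all 20 fibroblast markers, 7 were under 1 CPM in mono-culture in every line. Among these, Dcn, Fap, Postn and Thy1 had a mono-culture sum of at most 0.0753 CPM in the mean of any line. In coculture they summed to between 56.2 CPM (clone V) and 96.3 CPM (clone N). This sum leaves out Pdpn, Lum and Mfap5, which were also under 1 CPM in mono-culture. Pdpn averaged 5.20 CPM in coculture, while Lum and Mfap5 stayed under 1 CPM there in every line. Transcripts carried over from fibroblasts and transcripts made by the sorted tumour cells cannot be told apart in these libraries. The sum of all 20 markers, some of which were abundant in mono-culture too, went from 1852 to 3526 CPM in clone E but from 11141 to 10204 CPM in clone H, 9089 to 8868 CPM in clone V and 9040 to 8875 CPM in clone K. The epithelial markers Epcam, Cldn4, Cldn7 and Esrp1 were under 1 CPM in all lines and both cultures, while the sum of 12 epithelial markers had a median of 2989 CPM over mono-culture and 2828 CPM over coculture libraries. By line, the ratio of this sum ran from 0.697 in clone V to 1.33 in clone M. Of 11 epithelial markers tested, 3 were called lower in coculture (Krt8, Krt19 and Epcam) and 1 higher (Sox9). Krt19 had ratios from 0.352 to 0.807. In bulk libraries, fewer cells with a transcript and less transcript per cell cannot be told apart.

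Bone morphogenetic proteins (BMPs) signal through paired type I and type II serine/threonine kinase receptors, which phosphorylate Smad1 and Smad5. With Smad4 these enter the nucleus and switch on a short list of direct targets, best known among them the Id genes. Id proteins are helix-loop-helix factors without a DNA-binding region, and they hold E proteins and other basic helix-loop-helix factors off DNA. Smad6, itself a target, is an inhibitory Smad that damps the BMP signal. Of the 17 genes, 5 are known as BMP targets: Id1, Id2, Id3, Smad6 and Atoh8, the last a basic helix-loop-helix transcription factor.

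The remaining 12 have other roles. Stra6 is the cell-surface receptor through which retinol is taken up from its carrier Rbp4. Onecut2 is a homeodomain factor of liver and pancreas development, and Neat1 is the long non-coding RNA on which nuclear paraspeckles are built. Acss2 makes acetyl-CoA from acetate, Abca8b is a lipid transporter of the ABCA family and Stard10 carries phospholipids between membranes. Kalrn and Dock4 are guanine nucleotide exchange factors, Npnt (nephronectin) is a matrix ligand of integrin α8β1, and Mlph (melanophilin) tethers Rab27a vesicles to myosin Va. N4bp2 is a Nedd4-binding protein. The last, 4930546H06Rik, is a locus annotated as protein-coding. Its span on chr17:17827158-17843009 also holds Mir99b, Mirlet7e and Mir125a on the same strand.

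RefSeq promoter sequence on GRCm38.p6 was at hand for 13 of the 17 genes, and Id1, Onecut2, Neat1 and 4930546H06Rik were not matched. Sequence from these promoter entries is shown for 3 BMP targets and 2 further genes, as examples that hold motifs compared below. Each is written 5′ to 3′ in the direction of the gene and holds only bases outside the exons annotated by GENCODE M21. Capitals mark GGCGCC (a GC-rich Smad site), CACGTG (an E-box) and GGGCGG (a GC box) on either strand, and matches that touch run together. The Id2 stretch lies inside the span annotated for that gene, so it is not upstream of the gene as annotated.
Smad6 (chr9:64022060-64022309, minus strand): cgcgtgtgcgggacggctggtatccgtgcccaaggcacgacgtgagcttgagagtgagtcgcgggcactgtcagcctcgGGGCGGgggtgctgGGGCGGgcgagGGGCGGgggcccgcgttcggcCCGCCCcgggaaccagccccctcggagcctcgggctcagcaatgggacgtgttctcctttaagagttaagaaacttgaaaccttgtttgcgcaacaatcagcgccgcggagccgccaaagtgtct
Atoh8 (chr6:72235578-72235827, minus strand): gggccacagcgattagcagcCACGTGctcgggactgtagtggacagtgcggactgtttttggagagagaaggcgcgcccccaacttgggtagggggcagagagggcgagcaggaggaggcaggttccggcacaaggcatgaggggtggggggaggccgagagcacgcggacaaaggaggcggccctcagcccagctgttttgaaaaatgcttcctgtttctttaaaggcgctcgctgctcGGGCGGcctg
Id2 (chr12:25096254-25096342, minus strand): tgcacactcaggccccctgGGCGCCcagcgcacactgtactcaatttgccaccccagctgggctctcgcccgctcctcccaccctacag
Mlph (chr1:90914850-90915084, plus strand): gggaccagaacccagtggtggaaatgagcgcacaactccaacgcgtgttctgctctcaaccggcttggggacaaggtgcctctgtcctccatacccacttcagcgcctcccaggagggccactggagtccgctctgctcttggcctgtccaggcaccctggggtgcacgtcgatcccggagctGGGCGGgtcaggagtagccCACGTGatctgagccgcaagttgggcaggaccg
N4bp2 (chr5:65763271-65763520, plus strand): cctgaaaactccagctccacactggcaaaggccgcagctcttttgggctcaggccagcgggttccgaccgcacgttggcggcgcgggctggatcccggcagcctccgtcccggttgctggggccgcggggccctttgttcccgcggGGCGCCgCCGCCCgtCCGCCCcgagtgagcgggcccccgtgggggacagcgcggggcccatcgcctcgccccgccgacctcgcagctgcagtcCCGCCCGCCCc

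Over the 250 bases before each start, GGGCGG was found on either strand in 13 of the 17 promoters listed for 11 of the 13 genes, beside 32.7% of all 32851 promoters and 61.7% of the 8704 promoters of genes at or over 5 CPM in all lines. GGCGCC was found for Id2, Mlph and N4bp2, beside 17.9% of the promoters of those expressed genes. For Id2 it lay inside the annotated gene, and for Mlph in bases not shown. CACGTG was found for Atoh8 and Mlph, beside 8.98%. CCAAT was found for Acss2, Dock4, Id2 and Stra6, beside 35.4%. The palindromic Smad element GTCTAGAC, the cyclic AMP element TGACGTCA and the TATA box TATAAA were found for none of the 13 in this window. The median GC content of the 17 promoters listed for these genes was 62.8%, and that of the expressed genes was 60.8%.

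Among the BMP targets, Id1 (chr2:152736251-152737410) was lower in coculture by between 1.54-fold in clone K and 5.03-fold in clone T. In clone T the 4 mono-culture libraries held 230, 234, 247 and 279 CPM of Id1, and the 4 coculture libraries held 33.8, 35.3, 60.4 and 67.3 CPM. In clone K the mono-culture values were 114, 134, 167 and 179 CPM and the coculture values 79.3, 87.7, 110 and 110 CPM. The cultures therefore did not overlap in either clone, and the coculture libraries of clone K lay above those of clone T. Clone N was the only line whose cultures overlapped for Id1, with mono-culture libraries at 50.1, 67.2, 129 and 216 CPM and coculture libraries at 24.8, 30.9, 51.2 and 53.8 CPM.

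**Figure D1:**
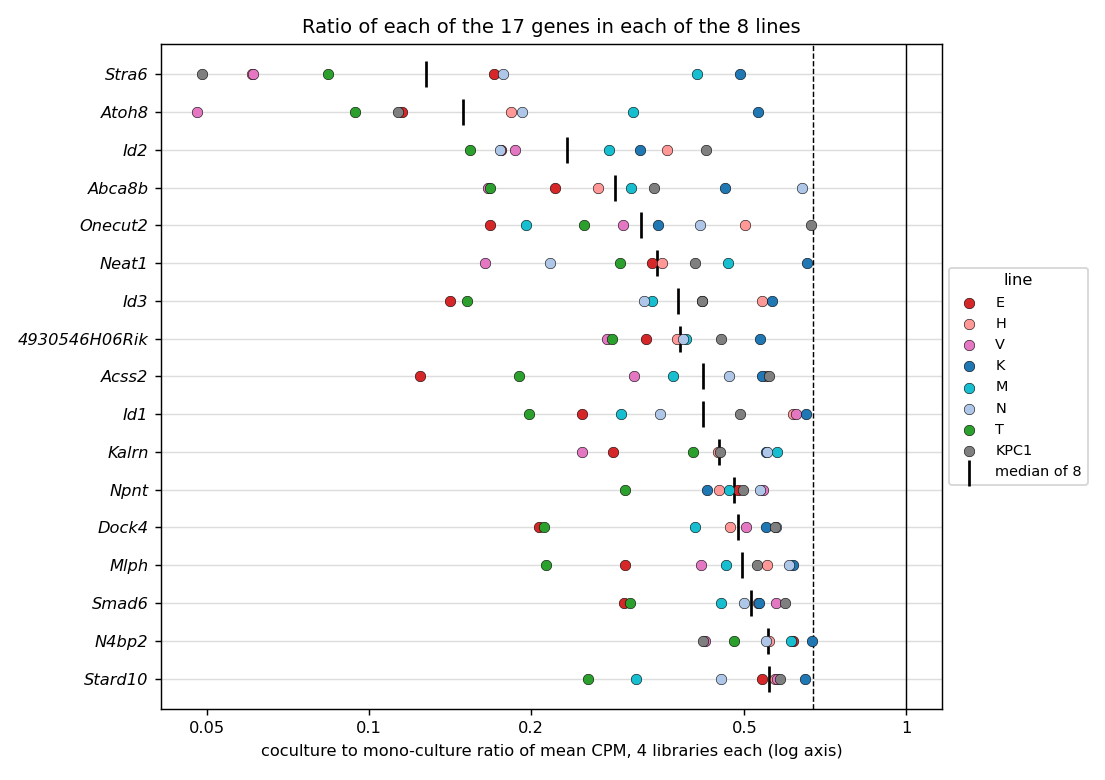
Each point is the ratio of mean CPM in coculture to mean CPM in mono-culture (4 libraries each, log axis) for 1 of the 17 genes in 1 of the 8 lines; vertical ticks are medians over lines, and the dashed line is the limit of 0.67. Stra6 and Atoh8 had the lowest medians (0.128 and 0.150), and clone K held the highest ratio of 9 genes.

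Id3 (chr4:136143497-136145755) was lowest relative to mono-culture in clone E and highest in clone K. Clone E held 88.4, 120, 157 and 172 CPM of Id3 in mono-culture and 9.65, 15.6, 17 and 33.7 CPM in coculture, a ratio of 0.141. Clone K held 90.1, 121, 133 and 162 CPM in mono-culture and 59.3, 65.1, 69.7 and 90.6 CPM in coculture, a ratio of 0.563. The Id3 libraries of clones E and K overlapped in mono-culture and did not overlap in coculture, and in clone K the highest coculture library lay just above the lowest mono-culture library.

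Id2 (chr12:25093799-25097140) had the narrowest range of ratios among the Id genes, from 0.154 in clone T to 0.425 in KPC1. Its mono-culture libraries in clone T held 59.5, 61.9, 70.1 and 106 CPM, and its coculture libraries 3.63, 7.11, 14.6 and 20.6 CPM. In KPC1, where Id2 was already low, the values were 3.72, 4.94, 8.67 and 11.2 CPM in mono-culture and 1.79, 2.88, 3.40 and 4.06 CPM in coculture, with 1 coculture library inside the mono-culture range.

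Smad6 (chr9:63953076-64022059) had ratios from 0.299 to 0.595. In clone E its mono-culture libraries held 35.2, 41, 41.3 and 51.3 CPM and its coculture libraries 9.97, 11.8, 12.4 and 16.3 CPM. In KPC1, the line with the highest ratio, the values were 16, 19.1, 20.6 and 21.2 CPM alone and 10.5, 11.2, 11.6 and 12.5 CPM with fibroblasts. The 2 cultures did not overlap in 7 of 8 lines, clone N being the exception.

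Atoh8 (chr6:72206177-72235577) had the widest range of ratios between lines, its highest being 11.1 times its lowest. By the SD of the log2 ratios over lines, Stra6 varied more (1.28, against 1.08 for Atoh8). Clone V held 26.8, 34.8, 53.8 and 55.1 CPM in mono-culture and 0.585, 2.32, 2.46 and 2.79 CPM in coculture, a 20.9-fold difference. Clone K held 82.8, 120, 178 and 213 CPM in mono-culture and 55.2, 75.3, 82.3 and 102 CPM in coculture, where the cultures overlapped. Clones K and M kept the most Atoh8 in coculture, with means of 78.7 ± 19.3 and 76.0 ± 36.7 CPM (SD, n = 4), against 2.04 ± 0.990 CPM in clone V.

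**Figure D2:**
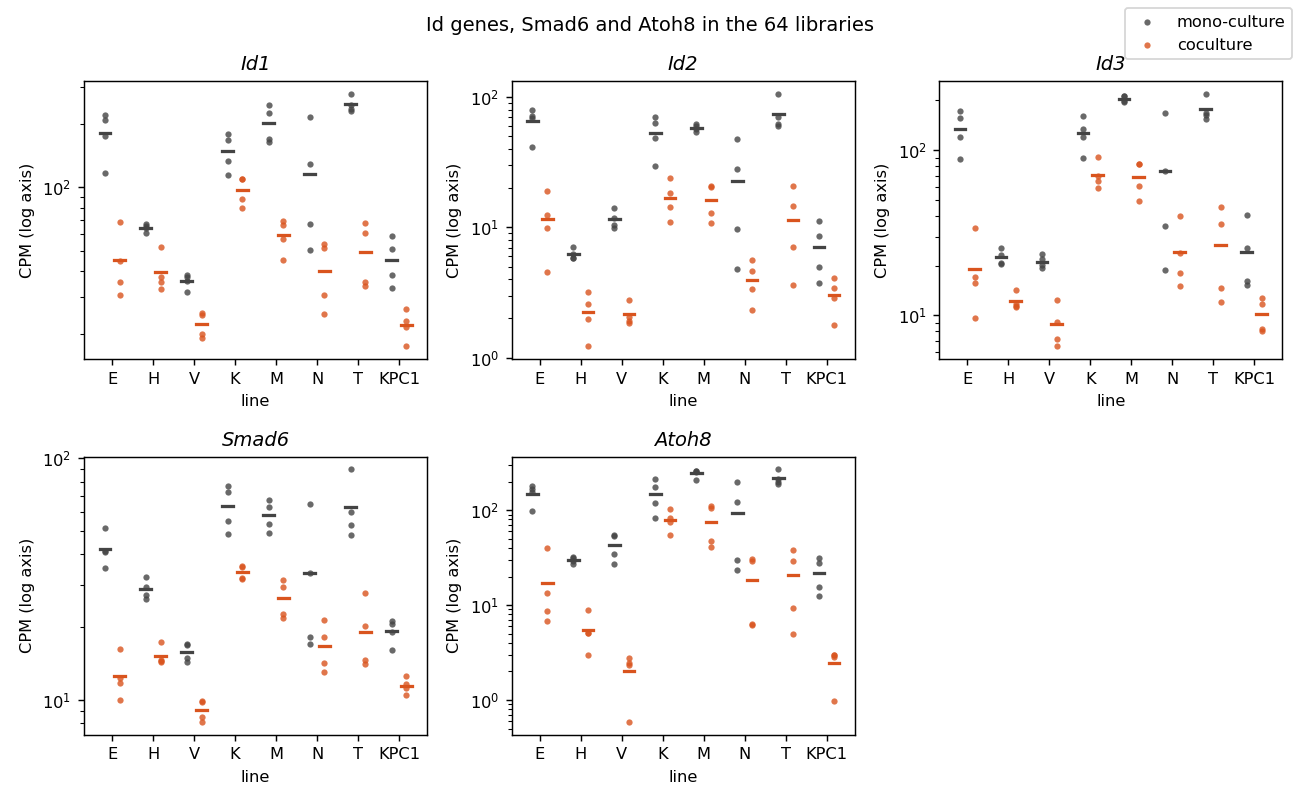
CPM (log axis) of Id1, Id2, Id3, Smad6 and Atoh8 in the 4 mono-culture (grey) and 4 coculture (orange) libraries of each line, with short lines at the means. The coculture mean lies below the mono-culture mean in every line and gene, and the mono-culture libraries of clone N spread widely, from 50.1 to 216 CPM for Id1.

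Other genes of the pathway were called in both directions. They were read from lists written after the 17 genes were known, in a fit of the summed counts of each line and culture across 16246 genes, of which 25.2% were called lower and 26.8% higher in coculture (edgeR adjusted p below 0.1). Of 12 other BMP targets tested, 2 were lower and 4 higher, with a median log2 change of 0.59 beside 0.0060 for all genes tested. The 2 lower genes were Smad7, the other inhibitory Smad (-0.37 ± 0.11, SE, edgeR adjusted p = 0.0226), and the transcriptional repressor Hes1 (-0.64 ± 0.22, edgeR adjusted p = 0.0391). The 4 higher were Gata2, Smad9, Bambi and Msx1, and the last 3 averaged under 1 CPM in both cultures. Id4, the remaining Id gene, averaged 0.828 CPM in mono-culture and 0.599 CPM in coculture, and was not called.

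Among the receptors, 4 of 9 tested were lower and none higher. The type I receptors Bmpr1a and Acvr1 changed by -0.23 ± 0.064 and -0.20 ± 0.063 on the log2 scale (edgeR adjusted p = 0.0158 and 0.0268). The type II receptors Bmpr2 and Acvr2a changed by -0.30 ± 0.070 and -0.49 ± 0.19 (edgeR adjusted p = 0.00768 and 0.0605). The receptor Smads were not lower: Smad1 was higher by 0.35 ± 0.086 (edgeR adjusted p = 0.00938), and Smad5 had a change of -0.025 ± 0.052 (edgeR adjusted p = 0.722). Of 14 Smads and regulators other than Smad6, 5 were lower and 4 higher, with the co-repressor Ski (-0.55 ± 0.11) among the first and the ubiquitin ligase Smurf1 (0.50 ± 0.11) among the second.

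Ligands and secreted antagonists were mixed. Bmp2 fell by 0.65 ± 0.22 on the log2 scale (edgeR adjusted p = 0.0390), while Bmp4, at a mean of 110 CPM in mono-culture, had a change of 0.033 ± 0.11 (edgeR adjusted p = 0.817). Of 6 ligands tested 1 was lower and 2 higher. Of 12 antagonists 3 were lower, among them chordin (Chrd, -1.39 ± 0.38), and 2 were higher. Grem1 (gremlin), an antagonist with a mono-culture mean of 169 CPM over lines, had ratios from 0.476 to 14.8 between lines and was not called (edgeR adjusted p = 0.693). Of 15 other genes on a list of TGF-β targets that also holds the 3 Id genes, 3 were lower and 6 higher.

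**Figure D3:**
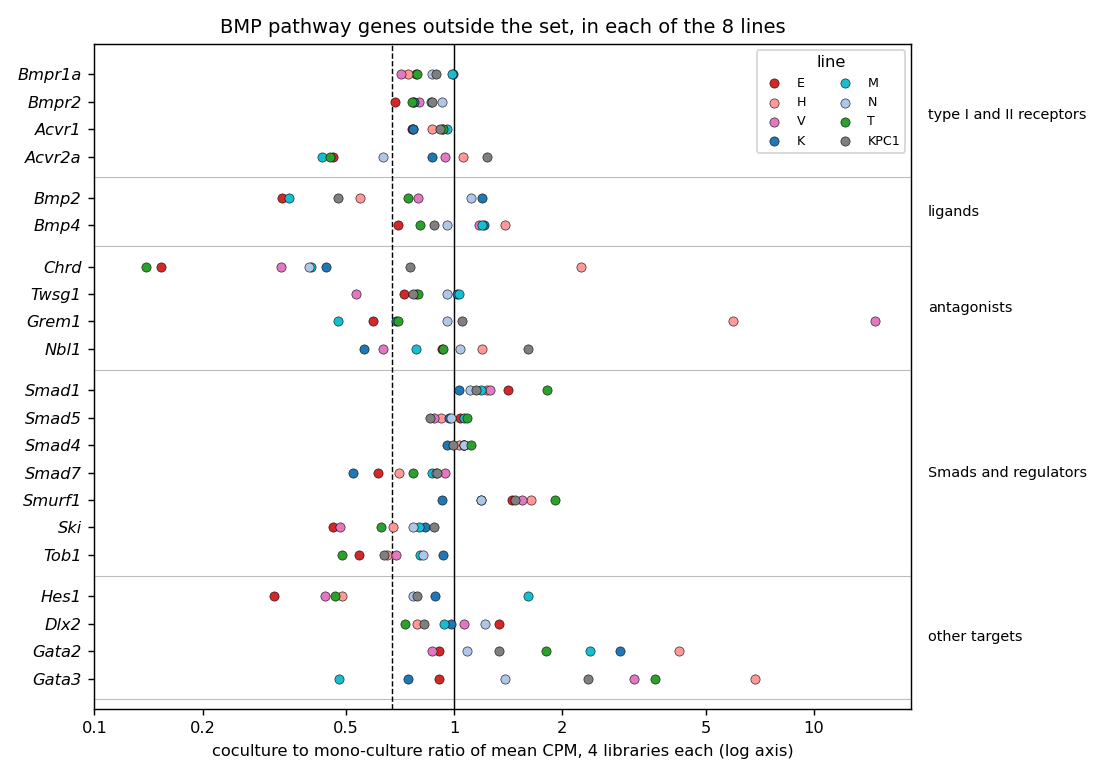
Ratio of mean coculture CPM to mean mono-culture CPM (log axis, 4 libraries each) in each of the 8 lines for BMP receptors, ligands, antagonists, Smads and other targets outside the 17 genes. Ratios lie on both sides of 1 for most genes, with Grem1 between 0.476 and 14.8, whereas those of Bmpr1a, Bmpr2, Acvr1, Smad7, Ski and Tob1 lie below 1 in every line.

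Stra6 (chr9:58063788-58153996) had the lowest median ratio of the set, 0.128. KPC1 held 4.76, 6.10, 7.47 and 7.81 CPM in mono-culture and 0.122, 0.179, 0.418 and 0.562 CPM in coculture, the latter resting on 20 counts over 4 libraries. Clone T held 41.7, 46.4, 61.2 and 102 CPM alone and 0.509, 2.70, 6.49 and 11.5 CPM with fibroblasts. Clone K had the smallest difference, with 14.8, 15.9, 23.1 and 24 CPM alone and 6.35, 7.74, 9.36 and 14.7 CPM with fibroblasts. The cultures did not overlap for Stra6 in any of the 8 lines, which held for 2 of the 17 genes (Stra6 and Kalrn) and for 0.226% of the 8849 genes. With TMM-scaled CPM or with RPKM it held for 0 of the 17. In clone N the gap was small for both genes. The highest coculture and lowest mono-culture libraries held 13.1 and 13.5 CPM of Stra6, and 32.4 and 32.5 CPM of Kalrn.

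Of 19 other retinoid genes tested, 5 were lower and 4 higher in coculture. The lower genes were the retinol and retinal enzymes Rdh10, Dhrs3 and Aldh1a3 and the receptors Rara and Rxra. Dhrs3, which returns retinal to retinol, was at or under the 0.67 limit in 7 lines, with a log2 change of -0.97 ± 0.19 (edgeR adjusted p = 0.00363). The higher genes were Crabp1, Crabp2, Aldh1a2 and Rarb, of which Crabp1 and Aldh1a2 averaged 0.0136 and 0.0173 CPM in mono-culture. Rbp4, the ligand of the Stra6 protein, had a mean of 159 CPM in mono-culture and ratios from 0.208 to 1.92.

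Onecut2 had a median ratio of 0.321. Clone E held 91.6, 94.3, 102 and 219 CPM of Onecut2 in mono-culture and 15.3, 19.4, 22.7 and 27.7 CPM in coculture. KPC1 sat just inside the limit at 0.666, with 13.7, 20.01, 20.6 and 23.01 CPM in mono-culture and 10.5, 11.01, 14.8 and 15.2 CPM in coculture, so that the cultures overlapped there. Other liver and pancreas factors split: of 11 tested, 3 were lower, among them Hnf4a and Pdx1, and Sox9 was higher. Pdx1 was under the limit in every line except clone K, where its ratio was 0.938.

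Neat1 (chr19:5824708-5845478) was the second most abundant of the 17 by CPM, at a mean of 349 CPM in mono-culture and 130 CPM in coculture. Clone V held 85.7, 179, 199 and 314 CPM alone and 15.2, 21.4, 44.2 and 47.2 CPM with fibroblasts, which did not overlap. Clone K held 239, 295, 308 and 753 CPM alone and 113, 169, 264 and 497 CPM with fibroblasts, and the cultures overlapped in 5 of 8 lines. Malat1, the nuclear long RNA encoded beside it, was at or under the limit in 7 lines (log2 change -1.03 ± 0.17, edgeR adjusted p = 0.00188). Among 10 other paraspeckle and nuclear RNA genes tested, 4 were lower, among them Malat1, Sfpq and Pspc1, and none higher.

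Acss2 (chr2:155517948-155585724) was lower 8.03-fold in clone E, where mono-culture libraries held 59.1, 66.5, 88.2 and 93.1 CPM and coculture libraries 5.29, 7.16, 8.497 and 17.3 CPM. In KPC1 the ratio was 0.556, with values of 14.3, 16.3, 17.5 and 33.3 CPM alone and 7.07, 10.03, 12.9 and 15.3 CPM with fibroblasts. Among lipid synthesis genes, 10 of 15 other fatty acid synthesis genes and 20 of 23 cholesterol synthesis genes were called lower, with median log2 changes of -0.30 and -0.52. In the fatty acid list 2 were called higher, Acsl1 and Me1, and in the cholesterol list none. Acly, the citrate-dependent source of cytosolic acetyl-CoA, changed by -0.23 ± 0.071 (edgeR adjusted p = 0.0239).

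Abca8b (chr11:109932190-109995845) ranged from 0.167 in clone V to 0.641 in clone N. Clone V held 11.02, 15.5, 16.7 and 18.4 CPM alone and 2.05, 2.59, 2.79 and 2.85 CPM with fibroblasts. Clone N held 8.23, 8.60, 8.67 and 16.6 CPM alone and 4.34, 4.56, 7.70 and 10.4 CPM with fibroblasts, so the cultures overlapped. Its near-copy Abca8a averaged 0.913 CPM in mono-culture, and reads shared between the pair could have been split by the counting. The cholesterol exporter Abca1 had ratios from 0.185 to 0.619 in the 8 lines and missed the set only by its mono-culture level in clone H, 3.12 CPM. Of 11 other ABCA genes tested 5 were lower and 1 higher.

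Stard10 (chr7:101317086-101346626) had the highest median ratio, 0.555. Clone T held 39.9, 53.1, 54.7 and 64.2 CPM in mono-culture and 9.48, 11.1, 14.1 and 19.6 CPM in coculture, against 18.1, 19.4, 22.2 and 31.5 CPM and 13.4, 14.6, 15.3 and 15.8 CPM in clone K. The cultures were apart in both clones. Of 7 other START-domain carriers tested 2 were lower (Stard3 and Stard4) and 1 higher.

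The exchange factors Kalrn (chr16:33969073-34573532) and Dock4 (chr12:40445952-40846874) differed in the lines that stood lowest. Kalrn was lowest in clone V, with 30.2, 32.9, 34.2 and 39.8 CPM alone and 7.70, 7.98, 8.54 and 9.91 CPM with fibroblasts. Dock4 was lowest in clone E, with 47.7, 70.5, 77.6 and 83.7 CPM alone and 8.80, 13.4, 14.1 and 21.7 CPM with fibroblasts. The cultures did not overlap in these pairs, nor for Kalrn in any line. Of 16 related exchange factors and partners, 6 were lower and 2 higher. Trio, the close relative of Kalrn, had ratios from 0.466 to 0.792 and a log2 change of -0.66 ± 0.085 (edgeR adjusted p = 0.000856).

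Npnt (chr3:132881745-132950291) was the most abundant gene of the set by CPM, with a mean of 481 CPM in mono-culture, and ranged from a ratio of 0.300 in clone T to 0.542 in clone V. Clone T held 674, 674, 870 and 891 CPM alone and 143, 219, 245 and 326 CPM with fibroblasts. Clone V held 399, 479, 489 and 533 CPM alone and 220, 248, 265 and 297 CPM with fibroblasts. Per length, in the deposited RPKM (counts scaled for transcript length and depth), Id1 at 105 and Npnt at 89.7 RPKM had the highest mono-culture means of the set, and N4bp2 at 1.36 RPKM the lowest. Itga8, which encodes the α8 chain that binds nephronectin, averaged 0.0270 CPM in mono-culture and 1.07 CPM in coculture.

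Mlph (chr1:90915085-90951142) was lowest in clone T, with 124, 136, 166 and 177 CPM in mono-culture and 19.2, 29.9, 36.5 and 43.6 CPM in coculture. In clone K its mono-culture libraries spread from 29.5 to 100 CPM and its coculture libraries held only 34 to 37.4 CPM, inside that range. Of 8 partners tested, 4 were lower (Rab27b, Myo5a, Myo5c and Sytl1) and Myo5b was higher. Mlph's own partner Rab27a averaged 2.31 CPM in mono-culture and was not called.

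The remaining pair were N4bp2 and 4930546H06Rik. N4bp2 was the gene nearest to the limit, at 0.668 in clone K, where its libraries held 22.1, 26.3, 26.3 and 26.9 CPM alone and 13.1, 15.9, 17.2 and 21.7 CPM with fibroblasts. Its lowest ratio was 0.419, in KPC1. 4930546H06Rik had ratios from 0.278 to 0.535, and its cultures overlapped in 5 of 8 lines. Besides N4bp2, Onecut2 (0.666) and Neat1 (0.655) lay just inside the limit, and Lamb2 (0.685 in KPC1), P4ha3 (0.687 in clone H) and Utp14b (0.701 in clone M) just outside it.

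**Figure D4:**
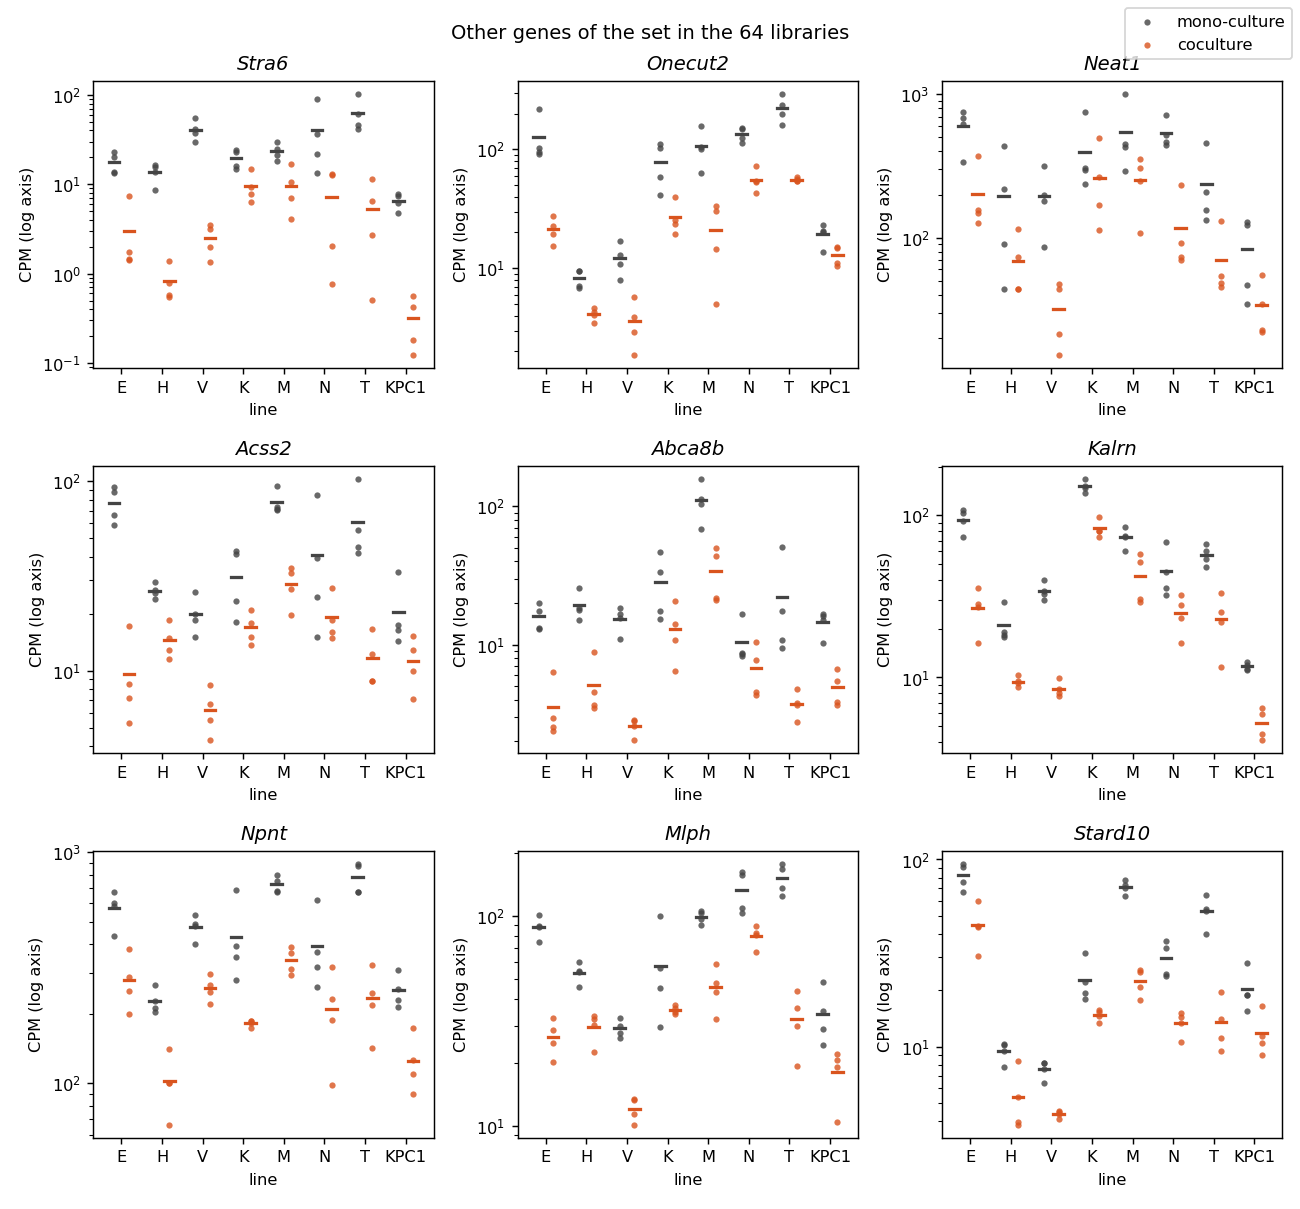
CPM (log axis) of 9 further genes of the set in the 4 mono-culture (grey) and 4 coculture (orange) libraries of each line, with short lines at the means. Stra6 and Kalrn show no overlap of cultures in any line, whereas Neat1 overlaps in 5 lines.

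Across the 136 pairs of a gene and a line, the 4 coculture libraries all lay below the 4 mono-culture libraries in 104, beside 18.2% of such pairs over the 8849 genes, a count that the choice of the genes favours. The overlaps gathered in clone N (9 genes), clone K (8) and KPC1 (7), while clone T had none. In clone N the spread lay mainly in the mono-culture libraries, whose SD was 74.8 CPM at a mean of 115 CPM for Id1 and 67.1 CPM at a mean of 74.3 CPM for Id3.

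The responses of the lines were also compared with each other. These comparisons use the same ratios and libraries that chose the 17 genes, each ratio being cut off at the limit, so the counts that follow are a description of the set and support nothing. For the line by culture interaction 12 of the 17 genes were past the threshold, about the same share as the 71.3% of all 14134 genes (edgeR quasi-likelihood F test, adjusted p below 0.1).

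Each clone's response was set against the mean of the other 7 lines in the same fit, with p-values adjusted over all genes within each clone's contrast. In clone E, 8 of 17 genes were lower than that mean (Onecut2, Id3, Acss2, Id1, Kalrn, Dock4, Mlph and Smad6) and none higher, beside 14.2% of all genes lower and 15.2% higher. In clone T 8 genes were lower (Id3, Acss2, Id1, Npnt, Dock4, Mlph, Smad6 and Stard10) and none higher, beside 14.2% and 12.8% of all genes. The difference reached -1.70 ± 0.37 log2 units (SE) for Acss2 in clone E and -1.19 ± 0.23 for Mlph in clone T. The BMP targets Id1, Id3 and Smad6 were past the threshold in both clones.

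In clone K, Stra6, Atoh8, Id3 and Id1, or 4 of 17, were higher than the mean of the other lines and none was lower, which is near the background of 18.3% of all genes higher and 15.9% lower. The differences were 2.10 ± 0.57 log2 units (SE) for Stra6 and 1.96 ± 0.53 for Atoh8. In clone V, Atoh8 and Kalrn were lower and Id1 higher (all genes: 18.4% and 13.3%). In clone M, Onecut2 and Stard10 were lower and Stra6 higher (11.9% and 14.3%). In clone N, Abca8b was higher (3.82%, with 3.13% lower), and in KPC1, Onecut2 and Acss2 were higher (11.9%, with 15.7% lower). In clone H none of the 17 was called in either direction (7.48% lower and 5.77% higher over all genes).

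The lines also differed over all genes. Of the 8849 genes, 14.8% in clone E, 15.5% in clone T and 16.8% in clone V had a ratio of 0.67 or less, but only 1.90% in clone K and 4.80% in clone M. The median ratio over those genes stayed between 0.966 and 1.034 in all lines, while the median over the 17 ran from 0.214 in clone T and 0.249 in clone E to 0.540 in clone K. For the 5 BMP targets the medians were 0.154 in clone T, 0.176 in clone E, 0.311 in clone M, 0.325 in clone N, 0.416 in clone V, 0.425 in KPC1, 0.529 in clone H and 0.533 in clone K. Clone V had the largest share of all genes at or under the limit. Its median was 0.416 over these targets, 0.304 over the other 12 genes and 0.312 over all 17.

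As a description over 8 lines, the log2 ratios of different genes of the set ran mostly in parallel, 118 of 136 gene pairs having a positive Pearson's r with a median of 0.47. The most alike were Dock4 and Smad6 (r = 0.970) and Id3 and Smad6 (r = 0.936), and the least alike Stra6 and Onecut2 (r = -0.499). All ratios of a line share the same 8 libraries, and these ratios also chose the genes. Pairs of other genes were not compared, so the values describe the set only.

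Which genes met the rule depended most on clone K. When the rule was applied to the other 7 lines, 54 genes with 5 CPM or more in clone K were found, and 17 of them (31.5%) were at or under 0.67 in clone K, beside 1.90% of all 8849 genes. Their median ratio in clone K was 0.817, and 48 of the 54 were below 1. With another line left out, between 70.8% (KPC1) and 100% (clones E and T) of the genes found were at or under the limit in that line. In every case, clone K included, the count at the limit is the 17 by construction, so these shares test nothing. Of 52 genes that met the limit in exactly 7 lines, 37 missed it in clone K. All 4 mono-culture libraries of clone K were among the 21 libraries of higher sample number, as were 2 of its 4 coculture libraries. What the sample numbers mark is not stated in the labels, and their part in the ratios of clone K was not tested.

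Single libraries met the limit less regularly than the means. When the genes were chosen on 3 replicates, 3 of 21 genes were at or under 0.67 in all 8 lines of replicate 1 when that was left out, 10 of 16 for replicate 2, 4 of 16 for replicate 3 and 8 of 12 for replicate 4. In the replicate left out, 16 of 21, 14 of 16, 16 of 16 and 11 of 12 were below 1 in all 8 lines. The genes chosen anew were not all members of the set, which held 15, 15, 14 and 11 of them. The shares of all genes meeting these conditions were not counted, and the labels do not state whether replicates were separate cultures. The counts are therefore a description and test nothing.

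**Figure D5:**
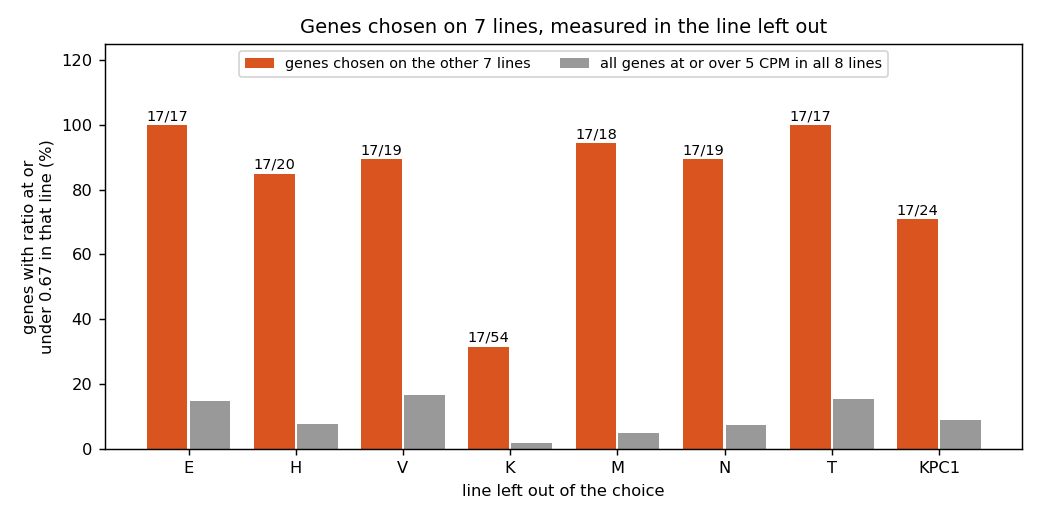
Share (%) of genes at or under a ratio of 0.67 in the line named on the x axis: genes chosen on the other 7 lines (orange, with counts) and all 8849 genes (grey). The orange share is 31.5% in clone K and between 70.8% and 100% in the other lines, and every orange bar stands above its grey bar.

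In mono-culture, all 17 genes differed between lines, as did 96.9% of 13624 genes tested (edgeR adjusted p below 0.1, the largest of the 17 being 0.000222 for Neat1). The widest ranges of line means were those of Onecut2, from 8.22 CPM in clone H to 222 CPM in clone T, and Dock4, from 5.85 CPM in clone H to 139 CPM in clone M. The narrowest was that of N4bp2, from 14.8 CPM in KPC1 to 33.5 CPM in clone M. Clone H, clone V and KPC1 held the lowest mean of 16 of the 17 genes, and clone N that of Abca8b. For the BMP target Id1 the means were 35.8 ± 2.96 CPM in clone V, 45.2 ± 11.7 in KPC1 and 64.1 ± 2.65 in clone H, against 247 ± 22.02 CPM in clone T (SD, n = 4).

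No difference between group 1 and group 2 clones was called for any of the 17. On counts summed per clone and culture, 0 of the 17 genes were called for a different response, beside 0.00618% of 16172 genes (1 gene, edgeR adjusted p below 0.1). At an unadjusted p under 0.05 there was 1 of the 17, beside 1214 of all 16172 genes. It was Kalrn, for which the response of group 1 minus that of group 2 was -0.67 ± 0.22 log2 units (edgeR adjusted p = 0.658). For Id1 the response of group 1 minus that of group 2 was 0.48 ± 0.45 log2 units, for Id3 0.092 ± 0.54 and for Stra6 -1.39 ± 0.67. In mono-culture 0 of the 17 were called between the groups, beside 0% of 14829 genes, and 1 (Smad6) had an unadjusted p under 0.05, beside 766 of all genes. Without clone E, the group 1 clone in which Onecut2, Id3 and Dock4 were high, group 1 held only clones H and V. These genes were then lower in group 1 (edgeR adjusted p = 0.0569, 0.0835 and 0.0897), with 217 of 15306 genes called. With any other clone left out, 0 of the 17 were called.

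Other measured quantities moved along with the cultures. Immediate-early and heat-shock genes that respond to cell dissociation summed to a median of 1441 CPM over mono-culture and 963 CPM over coculture libraries, with 6 of 14 called lower and none higher. Fos and Fosb were at or under the limit in 7 lines each. The ratio of this sum was 0.336 in clone E, 0.495 in clone T, 0.574 in clone M and 0.668 in clone H. It was 0.828 in clone K, 0.832 in KPC1, 0.833 in clone N and 1.023 in clone V. The summed fibroblast markers Dcn, Fap, Postn and Thy1 in coculture were 62.8 ± 24.9 CPM in clone E, 83.5 ± 28.2 in clone T and 92.6 ± 74.3 in clone K (SD, n = 4). The sum of all 20 markers was higher in coculture in clone T (6258 to 10681 CPM), as in clone E, but not in clone K. The part of these in the lower values of the 17 genes was not tested.

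Of the 17 genes, all but Neat1 are annotated as protein-coding. Their spans ran from 1160 bases (Id1) to 604460 bases (Kalrn) with a median of 60968 bases, and the median of the expressed genes was 25243.5 bases. Their median mono-culture level was 55.8 CPM, beside 51.7 CPM. Several overlap other annotated genes on the opposite strand (Ccdc33 for Stra6, Gss, Ggt7 and Acss2os for Acss2, and N4bp2os for N4bp2), and the strand setting of the counting is not given in the sources used here, so reads of such partners cannot be told apart.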

How the data were processed

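RNA was sequenced from 64 libraries (8 lines, 2 cultures, 4 libraries each), made per the labels with a strand-specific poly(A) kit and read as paired ends. The authors deposited whole-number counts of reads per gene, without normalization, for 39017 genes, and RPKM values for 49585 genes. The submitters' processing notes name featureCounts, edgeR and the mm10 build. Every library column of both tables was used.

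CPM is a gene's count over the library total. The 17 genes, the gene lists and the tests were chosen with earlier results of these data known. Named genes are all 17 members, the 3 nearest on either side of the limit, and examples of their pathways chosen after their values were seen. Tests across all genes were run in R 4.3.3 with edgeR 4.0.16 (TMM, filterByExpr, quasi-likelihood F test, Benjamini-Hochberg adjustment, threshold 0.1 after the study's methods) with DESeq2 1.42.0 as an alternative. Responses between lines used the 64 libraries. Groups were compared on 14 sums of clones, and pathway genes were placed on 16 sums of lines, with line as a term, a fit added after the data were seen. Positions and overlaps are from GENCODE M21 (GRCm38), and promoters are from RefSeq (GRCm38.p6). At the lowest, 2 reads lay behind a member's value in a library (Stra6). Intervals are SD or SE between libraries or sums. Some items of the design and of the gene lists are not reported here.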

Additional observations from a re-analysis of the deposited data

Results flagged for a closer look

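The response to coculture differed between lines for 12 of the 17 genes (edgeR quasi-likelihood test of the line by culture interaction), about the 71.3% of all genes tested. The test draws on the ratios that chose the genes, so these values are a description. The edgeR adjusted p was 9.63e-05 for Id1, 0.000114 for Mlph, 0.000278 for Acss2, 0.000294 for Stard10, 0.00123 for Stra6 and 0.00138 for Dock4. It was 0.0014 for Onecut2, 0.0022 for Id3, 0.00338 for Kalrn, 0.00422 for Atoh8, 0.0142 for Smad6 and 0.0244 for Abca8b.

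In 17 of 289 groups of values tested with Dixon's criterion, 1 library stood apart from the others of its group. About 1 in 20 groups, or 14.45, would be so marked by chance. Neat1 had 4 such libraries: 374 CPM in clone E coculture (the others 127 to 157), 753 CPM in clone K mono-culture (239 to 308), 233 CPM in clone N coculture (70.1 to 92.1) and 131 CPM in clone T coculture (44.98 to 54.4). Stra6 stood at 7.42 CPM in a coculture library of clone E (1.43 to 1.74), and Abca8b at 6.38 CPM in clone E coculture (2.36 to 2.94). Abca8b also stood at 16.6 CPM in clone N mono-culture (8.23 to 8.67), and Onecut2 at 219 CPM in clone E mono-culture (91.6 to 102). Atoh8 stood low at 0.984 CPM in KPC1 coculture (2.87 to 2.998) and at 207 CPM in clone M mono-culture (253 to 260). Acss2 stood at 33.3 CPM in KPC1 mono-culture (14.3 to 17.5) and at 94.4 CPM in clone M mono-culture (70.8 to 73.0). In clone H, 4930546H06Rik stood at 10.5 CPM in coculture (3.43 to 4.48), Kalrn at 29.3 CPM in mono-culture (17.8 to 19.01), Smad6 at 17.3 CPM in coculture (14.3 to 14.7) and N4bp2 at 6.80 CPM in coculture (9.41 to 9.82). N4bp2 also stood low in clone K mono-culture, at 22.1 CPM (26.3 to 26.9).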

How the results depend on the processing

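The number of genes meeting the rule moved from 17 to 2 at a ratio limit of 0.5 and to 84 at 0.8. It was 31 with a mono-culture floor of 1 CPM and 6 with a floor of 20 CPM. It was 56 without line K, 26 without line KPC1, and 73 in the libraries of lower sample numbers of the 7 lines other than K, where fewer lines and libraries had to pass. With 1 replicate left out it lay between 12 and 21. Genes with no overlap of cultures in all 8 lines went from 2 to 0 with TMM-scaled CPM and to 0 with RPKM, and the cause was not tested. The line by culture interaction was called for 11 to 12 genes with a replicate left out. Of 32 pairs of libraries with the same number, 23 had deviations correlated over 0.1 (from -0.148 to 0.636), so most pairs deviated together but not every pair, which was the criterion for taking the numbers as pairs. With the replicate block within line, 14 of the 17 were called, beside 10692 of 14586 genes, Id2 (edgeR adjusted p = 0.00425) and Neat1 (edgeR adjusted p = 0.0116) being added, and the block changed no call of mono-culture levels, 17 of 17. The difference between groups in mono-culture was called for 3 genes without clone E and for 0 under the other alternatives run. Counts as low as 2 reads limit Stra6 in coculture.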

Other observations

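Below the mono-culture floor, 14 further genes had 1 CPM or more in every line and a ratio of 0.67 or less in all 8. The lowest median ratios among them were those of Wnt4, a secreted Wnt ligand (0.0889, between 0.0153 and 0.278), Ceacam1, an epithelial adhesion molecule (0.139), and Sorl1, a sorting receptor (0.205). Each was left out for 1 or more lines under 5 CPM, at 4.14 CPM for Wnt4 in clone H, 3.07 CPM for Ceacam1 in clone H and 3.002 CPM for Sorl1 in KPC1. These genes were named after their values were seen.

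The 8 genes higher in coculture in all lines, by the inverted ratio limit and the same mono-culture floor, were Tex30, Col3a1, Bgn, Asns, Bst2, Cdt1, Prr11 and Trip13. The median ratios were 23.8 for Bgn and 5.96 for Col3a1, both matrix genes that fibroblasts express, and between 1.82 and 2.70 for the other 6.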
